A study of Saccharomyces cerevisiae with 30 samples.

Results

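The shoulder of the small ribosomal subunit is the part of 18S ribosomal RNA that holds helices 16, 17 and 18. It was taken here as positions 471 to 620 of the 18S rRNA of budding yeast (Saccharomyces cerevisiae), counted from the 5′ end of 18S, a stretch of 150 nucleotides. It holds 75 A and C. Of these, 69 (43 A and 26 C) had an effective read depth of at least 1000 in all 30 libraries and are the nucleotides described, out of 776 A and C of 18S that met the same minimum. The other 6, A518, C519, A520 and A521 in the helix 17 region and A601 and A604 after helix 18, had a lowest depth between 742 and 953 reads and were left out.

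The particles were probed with DMS-MaPseq, in which dimethyl sulfate (DMS) methylates the pairing face of A and C where it is exposed and reverse transcription reads the methylated base as a mutation. The 4 particles were WT pre-40S (5 biological replicates), S15_YRR pre-40S (3 replicates, from a mutant of the ribosomal protein S15), Rio2_Δloop pre-40S (4 replicates, from a mutant of the assembly factor Rio2) and mature 40S subunits (3 replicates). All pre-40S, the precursors of the small subunit, were pulled down through a TAP tag on Rio2, so they are the particles to which Rio2 was bound. Cells grew in rich medium to mid-log phase; the treated libraries received 1% DMS for 5 min at 30 °C, and each replicate also had an untreated library (NC). The strain background and how mature 40S were purified are not given in the sources used here.

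Helix 18 carries the loop known as the 530-type loop from its number in Escherichia coli, among the most conserved sequences of ribosomal RNA. It lies at the decoding centre, where its bases monitor the pairing of codon and anticodon in the A site, and part of the loop pairs with a bulge of its own stem to form a pseudoknot. Helix 16 is a hairpin that reaches out from the shoulder towards the head and the entry of the mRNA channel, and helix 17 runs down the body of the subunit. In pre-40S, Rio2 sits on the side of the subunit that later binds tRNA, and S15 is a protein of the head.

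The sequences are shown to place each nucleotide in its helix. In the first 5 lines the capitals mark the A and C that are described, and in the last line they mark the conserved motif GCCGCGG of the helix 18 loop, which occurred once in 18S, so that the region holds the loop it is labelled for. Helix 18 was placed by this motif and by the stem strands UUGGAG and CUCCAA, each found once in 18S.
helix 16 hairpin (positions 482 to 505): uACAgggCCCAuuCggguCuuguA
helix 17 region (506 to 545): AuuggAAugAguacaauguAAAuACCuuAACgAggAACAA
helix 18 (546 to 592): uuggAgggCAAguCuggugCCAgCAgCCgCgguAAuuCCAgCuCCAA
loop of helix 18 (562 to 580): gugCCAgCAgCCgCgguAA
stretch after helix 18 (593 to 620): uAgCguAuauuaAAguuguugCAguuAA
helix 18, motif in capitals: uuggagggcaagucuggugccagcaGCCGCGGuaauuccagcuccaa

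The 69 nucleotides comprised 8 before helix 16, 10 in the helix 16 hairpin, 19 in the helix 17 region, 23 in helix 18 and 9 after it. The median effective depth over the region lay between 2207 and 21154 reads per library with DMS and between 1686.5 and 14730 without it, and both limits of each range were WT libraries. The untreated profiles over 18S fell into 4 library sets that crossed the particles. Set 1 comprised all S15_YRR replicates with WT 4 and 5, Rio2_Δloop 3 and 4 and mature 2 and 3, and set 2 comprised Rio2_Δloop 1 and 2 with WT 2 and 3. WT replicate 1 and mature replicate 1 each stood alone. Values are therefore given per replicate, and within sets where a difference was called.

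In all 4 particles the DMS signal of the shoulder came from few nucleotides. The measure used is the subtracted rate, the mutation rate of the DMS library minus that of the untreated library of the same replicate, in percentage points. Averaged over the 69 nucleotides it was 0.0743 ± 0.457 for WT (SD, n = 5), 0.301 ± 0.0657 for S15_YRR (n = 3), 0.290 ± 0.0430 for Rio2_Δloop (n = 4) and 0.255 ± 0.120 for mature 40S (n = 3). Over the other 707 A and C of 18S the same means were 0.127, 0.323, 0.281 and 0.280. The WT value rested on replicate 1, at -0.707, and was 0.270 without it. DMS raised the mutation rate at 9 of the 69 nucleotides for WT, 8 for S15_YRR, 17 for Rio2_Δloop and 12 for mature 40S (edgeR quasi-likelihood test of DMS against untreated libraries with the replicate as a block, Benjamini-Hochberg adjusted p below 0.05 over the 776 nucleotides). Over 18S the share raised was 16.4% for WT, 20.9% for S15_YRR, 26.7% for Rio2_Δloop and 18% for mature 40S, beside 13.0%, 11.6%, 24.6% and 17.4% of the 69 nucleotides in the same order, so no share of the shoulder exceeded the background. The Rio2_Δloop count was 8 without its replicate 3 and 7 without its replicate 4, where the share over 18S was not counted.

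The nucleotides raised by DMS in all 4 particles were A492, C495, A515, A529, A534 and C554, 6 of 69 against a background of 12.4%. In at least 1 particle DMS raised 20 of 69, against 30.5% of the nucleotides of 18S. These were 2 of 10 in the helix 16 hairpin, 9 of 19 in the helix 17 region, 3 of 23 in helix 18, 6 of 9 after helix 18 and 0 of 8 before helix 16. By base they were 16 of 43 A and 4 of 26 C. A nucleotide that passed in 1 particle and not in another is not thereby shown to differ between them.

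**Figure D1:**
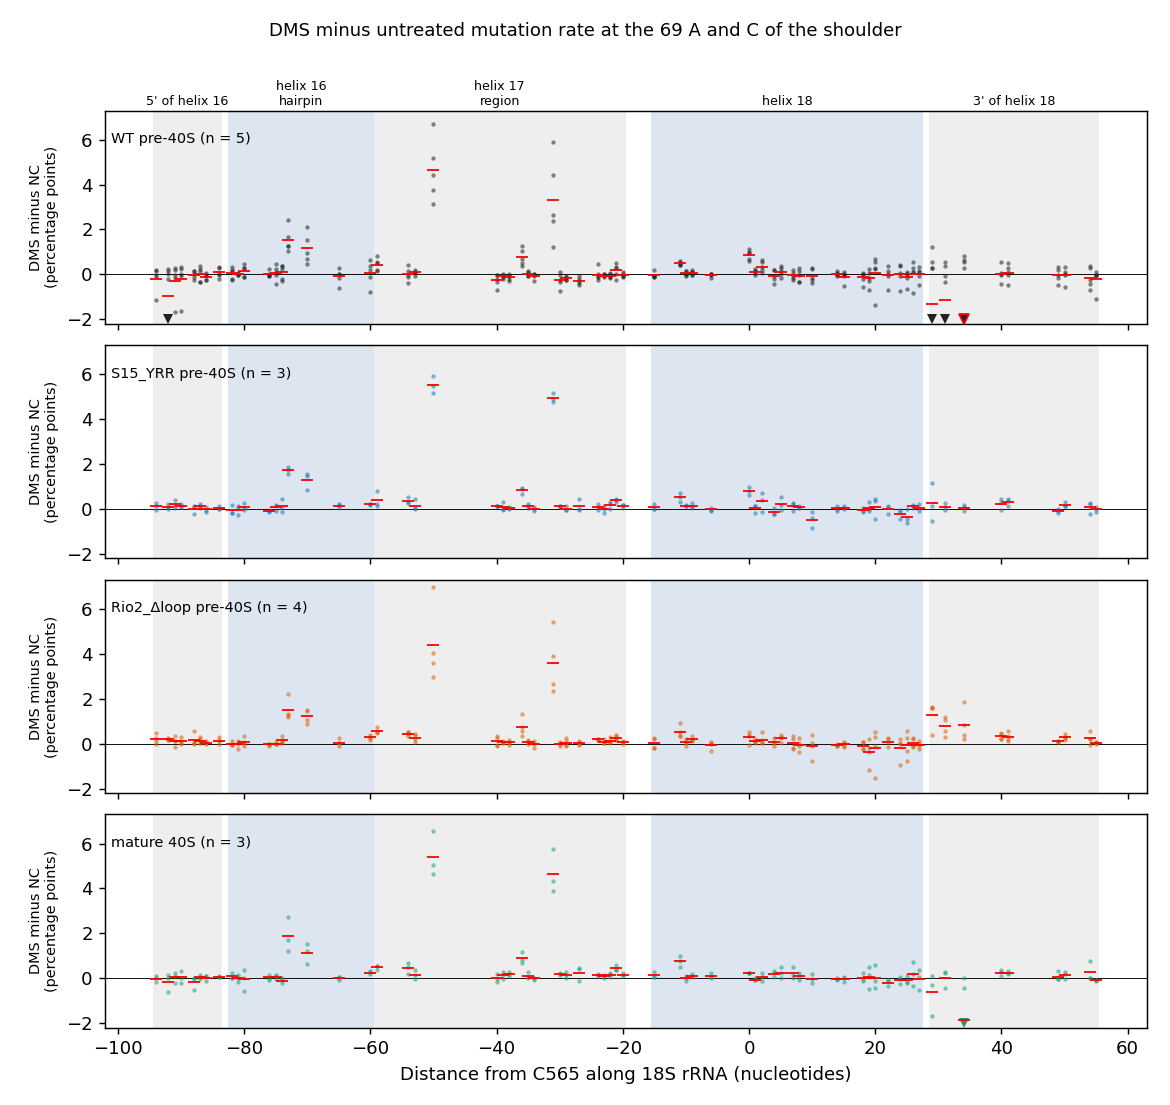
Subtracted rate (DMS minus untreated mutation rate, percentage points) of the 69 A and C against their distance from C565 in nucleotides, 1 panel per particle; dots are replicates, red bars are means, shaded bands are the stretches, and triangles at -2 stand for values below the axis (WT replicate 1 at 4 nucleotides, mature replicate 1 at A599 and, open red, the WT mean at A599). A515 and A534 of the helix 17 region stand highest in every panel. In the helix 18 band C554 and C565 have the highest means over the 4 particles, and single replicates of other bases, such as A567 and C575, also lie away from 0.

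The comparison between particles asked where the shoulder of the pre-40S intermediates differs from WT pre-40S and from mature 40S. It was run on nucleotides whose mean DMS rate was at least 2 times the mean untreated rate, 106 in 18S, of which 7 lie in the shoulder: A492, C495, A515, A529, A534, C554 and C565. Just inside that limit were C495 with a ratio of 2.18 and C554 with 2.25, and just outside were A506 with 1.87 and A544 with 1.79. All 15 DMS libraries entered 1 edgeR quasi-likelihood fit, and p-values were adjusted over the 106 nucleotides for each pair of particles. In 3 of the 6 pairs 1 of the 7 was called, or 14.3%. Of the 106, 15.1% were called for Rio2_Δloop and WT, 21.7% for mature 40S and WT and 17.9% for mature 40S and S15_YRR. No share of the shoulder exceeded the background in these 3 pairs, and C565 alone passed. It met the limit of 2 through WT and S15_YRR, the particles where it is high: its mean DMS and untreated rates were 0.755% and 0.460% in Rio2_Δloop and 0.667% and 0.438% in mature 40S, below that ratio. With all 776 nucleotides tested, so that the limit played no part, 1 of the 3 calls was reached, that of mature 40S against WT (log2 change -0.91, edgeR adjusted p = 0.0365), while Rio2_Δloop against WT (-0.90, adjusted p = 0.0610) and mature 40S against S15_YRR (-0.67, adjusted p = 0.341) were not.

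C565 is a base of the helix 18 loop, in the stretch just 5′ of the conserved motif. Its subtracted rate in percentage points was 1.01, 0.597, 0.692, 1.12 and 0.939 in WT replicates 1 to 5 and 0.619, 0.807 and 0.972 in S15_YRR replicates 1 to 3. In Rio2_Δloop replicates 1 to 4 it was 0.389, -0.0626, 0.357 and 0.497, and in mature 40S replicates 1 to 3 it was 0.232, 0.221 and 0.232. The WT and S15_YRR values overlapped, and all 8 of them lay above all 7 values of Rio2_Δloop and mature 40S. The lowest of the 8 was 0.597 in WT, and the highest of the 7 was 0.497 in Rio2_Δloop. This grouping of particles follows the values at C565 and is a description only. The share of nucleotides separated by the same grouping was not counted. The means were 0.871 ± 0.219 for WT, 0.799 ± 0.177 for S15_YRR, 0.295 ± 0.246 for Rio2_Δloop and 0.228 ± 0.00621 for mature 40S (SD). Each DMS library held 49 to 297 mutations among 5764 to 31961 reads at this base, and each untreated library 18 to 64 among 9056 to 20611.

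Among the 106 nucleotides, the DMS mutation rate at C565 was lower in Rio2_Δloop than in WT pre-40S, with a log2 change of -0.79 (SE 0.159, edgeR adjusted p = 0.000855), a call not reached with all 776 tested. Of the 106 nucleotides 15.1% were called in that comparison in either direction, and 8.49% were called lower in Rio2_Δloop. It was lower in mature 40S than in WT by -0.98 (SE 0.179, adjusted p = 0.000117 by edgeR), with 21.7% called in either direction and 15.1% called lower. It was lower in mature 40S than in S15_YRR by -0.74 (SE 0.198, adjusted p = 0.00715 by edgeR), with 17.9% called in either direction and 13.2% called lower, and this call too was not reached with all 776 tested. Without overlap between replicates were 6.6% of the tested nucleotides for Rio2_Δloop and WT, 14.2% for mature 40S and WT and 18.9% for mature 40S and S15_YRR.

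The other 3 pairs did not pass at C565. S15_YRR was above Rio2_Δloop by a log2 change of 0.55 (SE 0.181, edgeR adjusted p = 0.0630; 6.6% of tested nucleotides called), although their subtracted rates did not overlap, as those of 12.3% of the tested nucleotides did not. S15_YRR differed from WT by -0.24 (SE 0.167, edgeR adjusted p = 0.761; 0.943% called), and mature 40S from Rio2_Δloop by -0.19 (SE 0.192, edgeR adjusted p = 0.525; 17.9% called). These p-values do not show that the members of a pair were alike.

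The order at C565 was the same within library sets. In set 1 the mean subtracted rate was 1.03 for WT (n = 2), 0.799 for S15_YRR (n = 3), 0.427 for Rio2_Δloop (n = 2) and 0.226 percentage points for mature 40S (n = 2), and in set 2 it was 0.644 in WT and 0.163 in Rio2_Δloop (n = 2 each). Within set 1 alone the log2 change from WT was -0.92 in mature 40S (edgeR adjusted p = 0.00887) and -0.68 in Rio2_Δloop (edgeR adjusted p = 0.112), so the second call was not reached there. Without a library scale neither the Rio2_Δloop call (log2 change -0.71, adjusted p = 0.118) nor that of mature 40S against S15_YRR (-0.86, adjusted p = 0.0615) was reached. The latter was also not reached without S15_YRR replicate 3 (-0.52, adjusted p = 0.0971) or mature replicate 2 (-0.65, adjusted p = 0.0567), or as an interaction with the untreated libraries (-1.01, adjusted p = 0.162), all by edgeR.

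The untreated rate at C565 was 0.183%, 0.306%, 0.238%, 0.416% and 0.622% in WT, 0.372%, 0.397% and 0.478% in S15_YRR, 0.277%, 0.525%, 0.444% and 0.596% in Rio2_Δloop and 0.291%, 0.506% and 0.518% in mature 40S. The DMS rates beside it were 1.19%, 0.903%, 0.929%, 1.53% and 1.56% in WT, 0.991%, 1.20% and 1.45% in S15_YRR, 0.665%, 0.462%, 0.801% and 1.09% in Rio2_Δloop and 0.524%, 0.727% and 0.750% in mature 40S. The untreated groups overlapped, with a log2 difference from WT of 0.50 (SE 0.318) in Rio2_Δloop and 0.64 (SE 0.345) in mature 40S, of opposite sign to the DMS difference of the same pair and not past the test. DMS raised the rate at C565 over its own untreated libraries, with log2 changes of 1.84 in WT (SE 0.208, edgeR adjusted p = 3.44e-09), 1.54 in S15_YRR (SE 0.269, adjusted p = 1.61e-05) and 0.71 in Rio2_Δloop (SE 0.236, adjusted p = 0.0206), and of 0.62 in mature 40S (SE 0.274, adjusted p = 0.125), where the test was not passed.

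**Figure D2:**
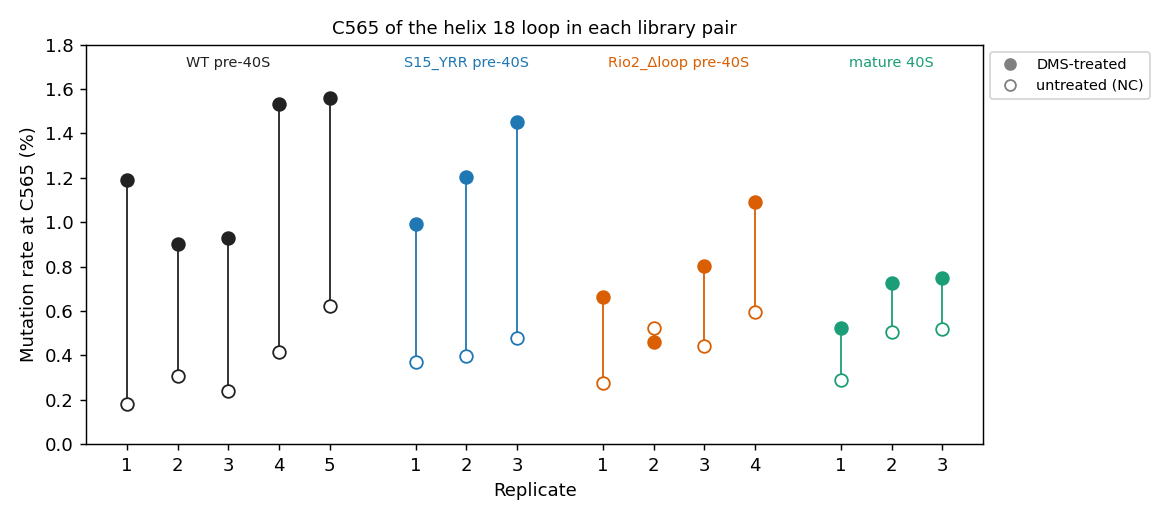
Mutation rate at C565 in percent in each replicate, with filled points for DMS-treated and open points for untreated libraries; the line between them is the subtracted rate. The lines of WT and S15_YRR are longer than those of Rio2_Δloop and mature 40S, and in Rio2_Δloop replicate 2 the untreated point lies above the treated one.

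Apart from A567 in WT, the rest of the helix 18 loop was not raised by DMS past the test in any particle. Of its 10 A and C, DMS raised C565 and A567, the latter in WT alone (edgeR adjusted p = 0.0186). At A567 the subtracted rate was 0.313, 0.0435, 0.558, 0.642 and 0.201 percentage points in WT, 0.420, -0.112 and 0.703 in S15_YRR, 0.508, 0.150, 0.00645 and 0.0259 in Rio2_Δloop and 0.218, -0.137 and 0.0491 in mature 40S. These groups overlap, and A567 was not among the nucleotides tested between particles. Averaged over the 4 particle means, the remaining loop bases were at 0.0441 for C566, 0.0207 for C569, 0.207 for A570, 0.0851 for C572, 0.0135 for C573, -0.162 for C575, -0.0140 for A579 and -0.0288 percentage points for A580. C566 is the base next to C565, and its mean was 0.114 ± 0.102 for WT, 0.0243 ± 0.193 for S15_YRR, 0.0961 ± 0.0752 for Rio2_Δloop and -0.0578 ± 0.0523 percentage points for mature 40S (SD). C572 and C573 are the bases of the motif that pair with the stem bulge in the pseudoknot.

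C554 lies on the other side of the pseudoknot and pairs with G571 of the loop in the placement used here. It was nevertheless raised by DMS in all 4 particles. Its subtracted rate was 0.467, 0.435, 0.531, 0.617 and 0.407 percentage points in WT, 0.554, 0.297 and 0.714 in S15_YRR, 0.509, 0.340, 0.341 and 0.910 in Rio2_Δloop and 1.01, 0.491 and 0.780 in mature 40S. The groups overlapped in every pair. The mean was highest in mature 40S, 0.761 ± 0.261 against 0.491 ± 0.0838 in WT (SD), and the log2 change of the DMS rate was 0.38 against WT (SE 0.167, edgeR adjusted p = 0.125) and 0.41 against S15_YRR (SE 0.190, edgeR adjusted p = 0.179). The interaction term of mature 40S and WT with the untreated libraries had the opposite sign, -0.24 (SE 0.411, edgeR adjusted p = 0.840). Without mature replicate 2, the lowest of the 3, the log2 change was 0.61 against WT (edgeR adjusted p = 0.00798), 0.56 against Rio2_Δloop (adjusted p = 0.0306) and 0.64 against S15_YRR (adjusted p = 0.0157). Leaving out the lowest replicate raises the mean of mature 40S by construction, so no difference at C554 is drawn from these 3 calls.

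No A or C of the outer and inner stems of helix 18 was raised by DMS past the test in any particle. Over the 4 particle means, the 6 A and C of the outer stem lay between -0.168 and 0.10 percentage points and the 4 of the inner stem between -0.104 and -0.00185. Of the 13 nucleotides of helix 18 with an assigned partner, 1 was raised by DMS in at least 1 particle, C554, where the share over 18S was 30.5%.

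In the helix 16 hairpin the signal came from the loop, at A492 and C495. At A492 the subtracted rate was 1.25, 1.05, 1.24, 2.42 and 1.68 percentage points in WT, 1.87, 1.72 and 1.58 in S15_YRR, 1.29, 1.19, 1.31 and 2.20 in Rio2_Δloop and 1.22, 2.72 and 1.69 in mature 40S. At C495 it was 0.482, 0.706, 0.946, 2.10 and 1.55 in WT, 1.49, 1.54 and 0.857 in S15_YRR, 0.878, 1.05, 1.46 and 1.50 in Rio2_Δloop and 1.21, 1.53 and 0.653 in mature 40S. At both nucleotides the groups overlapped in every pair, and the log2 changes from WT were between -0.03 and 0.12 at A492 and between -0.15 and 0.11 at C495, with edgeR adjusted p of at least 0.498. The other 8 A and C of the hairpin were raised by DMS in no particle.

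The helix 17 region held the 2 nucleotides of the shoulder with the highest DMS signal, A515 and A534. At A515 the subtracted rate was 3.14, 4.43, 3.75, 6.69 and 5.20 percentage points in WT, 5.19, 5.92 and 5.47 in S15_YRR, 4.03, 2.96, 3.61 and 6.98 in Rio2_Δloop and 4.66, 6.55 and 5.04 in mature 40S. A minimum free energy prediction by ViennaRNA put A515 in a pair, and A492, C495, A529 and A534 in unpaired positions. The prediction folded all 150 nucleotides without fixing the pairs placed in helix 18, and is used outside helix 18 only. At A534 the subtracted rate was 1.24, 2.67, 2.38, 5.92 and 4.42 in WT, 5.17, 4.75 and 4.92 in S15_YRR, 2.64, 2.33, 3.92 and 5.43 in Rio2_Δloop and 3.88, 5.77 and 4.33 in mature 40S. In WT and Rio2_Δloop the replicates of set 1 lay above those of set 2 at A534, with means of 5.17 and 2.53 in WT and 4.68 and 2.48 in Rio2_Δloop.

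Neither A515 nor A534 differed between particles past the test. The log2 change from WT at A515 was -0.07 in S15_YRR (SE 0.137), -0.19 in Rio2_Δloop (SE 0.126) and 0.05 in mature 40S (SE 0.136). At A534 it was 0.08 (SE 0.125), -0.14 (SE 0.117) and 0.13 (SE 0.125), and edgeR adjusted p was at least 0.399 for these 6 values. For the reactivity scale, each library's subtracted rates are divided by its own scale factor. All libraries are then divided by a shared constant, the mean over libraries of the values from the 90th to the 98th percentile. On this scale A534 ran from 0.460 to 1.16 in WT, 1.17 to 1.31 in S15_YRR, 0.785 to 1.14 in Rio2_Δloop and 1.17 to 1.33 in mature 40S. S15_YRR and mature 40S thus lay just above WT and Rio2_Δloop with no overlap, and no overlap in either direction was found at 10.4% of the tested nucleotides for S15_YRR and WT, 17.9% for S15_YRR and Rio2_Δloop, 27.4% for mature 40S and WT and 22.6% for mature 40S and Rio2_Δloop. The separation at A534 depends on the scale: the subtracted rates before scaling overlapped in each of these pairs. The untreated rate of WT replicate 1 at A534, 2.51%, was above that of every other untreated library, which lay between 0.0812% and 0.941%.

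**Figure D3:**
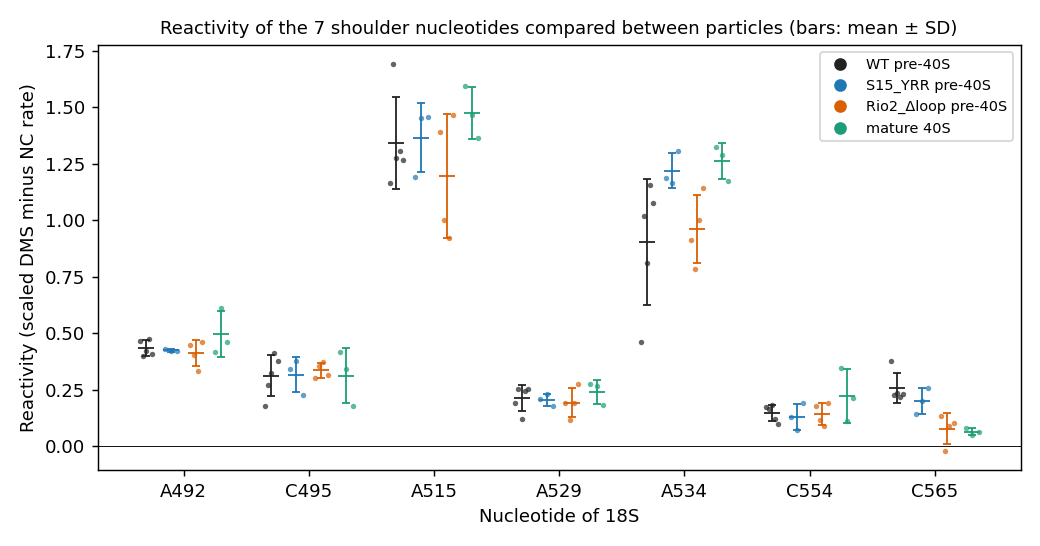
Reactivity (subtracted rate, scaled per library, no unit) of the 7 shoulder nucleotides compared between particles; points are replicates and bars show the mean ± SD of each particle. At C565 the points of WT and S15_YRR lie above those of Rio2_Δloop and mature 40S, while at the other 6 nucleotides the particles overlap or lie next to each other.

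A529 gave a weaker signal in the same region, 0.763 ± 0.370 for WT (n = 5), 0.837 ± 0.150 for S15_YRR (n = 3), 0.737 ± 0.417 for Rio2_Δloop (n = 4) and 0.886 ± 0.268 percentage points for mature 40S (SD, n = 3), and its log2 change from WT was -0.26 (SE 0.189), 0.11 (SE 0.171) and -0.09 (SE 0.186), with edgeR adjusted p of at least 0.761. These log2 changes of the scaled DMS rate have the opposite signs to the differences between the mean subtracted rates and to the interaction terms with the untreated libraries, which were 0.38 (SE 0.362), -0.60 (SE 0.304) and 0.54 (SE 0.374), with edgeR adjusted p of at least 0.305, so no direction is given for A529. A506, A544 and A511 followed, with means over the 4 particles of 0.471, 0.321 and 0.319 percentage points. A506 was raised by DMS in WT, Rio2_Δloop and mature 40S, A544 in S15_YRR, Rio2_Δloop and mature 40S, and A511 in Rio2_Δloop and mature 40S. At A544 the subtracted rate was -0.236, 0.0271, 0.297, 0.516 and 0.317 in WT and 0.371, 0.611 and 0.380 in mature 40S, which overlap.

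In WT, the mutation rate at C536 and A538 of the helix 17 region was lower in the DMS libraries than in the untreated ones, 2 of 69 nucleotides against a background of 1.55%. The cause was not tested. At C536 the subtracted rate was -0.230, -0.165, -0.261, -0.0598 and -0.106 percentage points (log2 change -0.75, SE 0.255, edgeR adjusted p = 0.0338), and at A538 it was -0.183, -0.278, -0.404, -0.0751 and -0.478 (log2 change -0.79, SE 0.233, edgeR adjusted p = 0.0119). All 5 WT pairs were below 0 at both. Both bases are shown because they were called low in these same pairs, so this agreement and their order between particles are a description only. The share of the 776 nucleotides with all 5 WT pairs below 0 was not counted. At C536 the values were -0.0631, 0.148 and -0.0469 in S15_YRR, 0.102, -0.0819, -0.123 and 0.268 in Rio2_Δloop and 0.283, 0.00314 and 0.154 in mature 40S. At A538 they were -0.00687, 0.428 and -0.0516 in S15_YRR, 0.0769, -0.0303, -0.0778 and 0.138 in Rio2_Δloop and 0.465, -0.114 and 0.398 in mature 40S. With all 776 nucleotides tested between particles as an alternative, neither was called.

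After helix 18 the untreated libraries carried high mutation rates, and WT replicate 1 stood apart. Its untreated rate was 14.4% at A594, 8.53% at C596 and 36.5% at A599, against 5.34% and 19.0% in its own DMS library at A594 and A599. Before helix 16 it was 7.45% at A473, against 2.46% with DMS. At A599 the subtracted rate was -17.5, 0.275, 0.556, 0.633 and 0.826 percentage points in WT, 0.162, 0.0958 and -0.0758 in S15_YRR, 0.192, 0.836, 1.86 and 0.392 in Rio2_Δloop and -5.20, 0.00797 and -0.414 in mature 40S. The low values are those of WT replicate 1 and mature replicate 1, the 2 replicates that stood alone in their untreated profiles. At A594 it was 0.398, 1.61, 1.57 and 1.59 in Rio2_Δloop and, without replicate 1, between 0.286 and 1.23 in WT. These values overlap, and A594 was not among the nucleotides tested between particles. In Rio2_Δloop DMS raised 6 of the 9 A and C of this stretch, A594, C596, A599, A605, A606 and A615, with edgeR adjusted p between 0.0148 and 0.0354, where the share over 18S was 26.7%. The count of 17 for Rio2_Δloop over the shoulder holds these 6. That count was 8 without replicate 3, 7 without replicate 4 and 7 without the block of library pairs, where the share over 18S was not counted. A605 was raised in mature 40S also (adjusted p = 0.0362). None of them reached the ratio of 2 needed for the comparison between particles.

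Of the 7 nucleotides C565 alone differed from WT past the test in this fit. It is 14.3% of the 7, beside 15.1% of the 106 called for Rio2_Δloop and 21.7% for mature 40S. The median log2 change of the DMS rate over the 7 was -0.03 for S15_YRR, -0.03 for Rio2_Δloop and 0.05 for mature 40S, beside 0.03, 0.0040 and 0.03 over all 106 tested nucleotides. For the 6 other than C565, the log2 changes over all 6 pairs of particles lay between -0.37 and 0.41 with SE between 0.110 and 0.207, and the lowest adjusted p was 0.125 by edgeR. In the untreated libraries 0 of the 69 nucleotides passed the edgeR test in any of the 6 pairs, against 0% to 1.16% of the 776. At an unadjusted p below 0.05 there were 13 for S15_YRR and WT (18.8% of the 69, against 10.3% of the 776), 8 for Rio2_Δloop and WT (11.6% against 4.9%) and 8 for mature 40S and WT (11.6% against 15.2%). There were 10 for S15_YRR and Rio2_Δloop (14.5% against 6.57%), 10 for mature 40S and Rio2_Δloop (14.5% against 13.3%) and 2 for mature 40S and S15_YRR (2.90% against 7.22%).

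**Figure D4:**
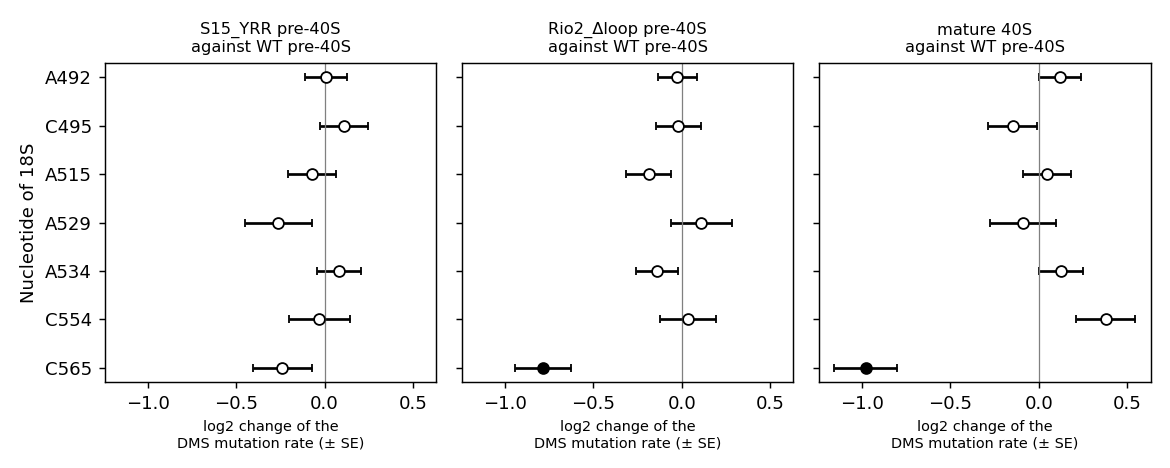
Log2 change of the DMS mutation rate from WT pre-40S at the 7 tested shoulder nucleotides, with bars for ± 1 SE and filled points for an adjusted p below 0.05. C565 is the only filled point, at -0.79 in Rio2_Δloop and -0.98 in mature 40S, and its value in S15_YRR is -0.24.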

How the data were processed

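DMS-MaPseq libraries of 4 yeast particles were analysed as 15 pairs of a DMS-treated and an untreated library. Each deposited profile gives mutation counts, effective depth counts and, per the file headers, a rate, the fraction of effective depth carrying a mutation, which the authors computed (recomputed rates differed by at most 5e-07). The deposited accessibility signal, a normalized value whose scale is not given in the sources used here, served as an alternative only. Aligner, counter and genome build are not given in the sources used here.

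Mutation counts were tested with edgeR 4.0.16 in R 4.3.3 (quasi-likelihood, robust), with the logarithm of effective depth as offset. Comparisons between particles and between untreated libraries added a library scale, the median ratio of rates. DMS was tested against untreated libraries with the pair as a block, following the labels. P-values were Benjamini-Hochberg adjusted over 18S at 0.05. DESeq2 1.42.0, limma 3.58.1, other scales and depth minimums, library sets and left-out replicates were alternatives. The fits were tested on simulated data: for Rio2_Δloop against WT, 20 of 20 nucleotides changed by a log2 of 1 were called, and 2 of 86 unchanged, among 106. For DMS against untreated libraries in WT, 183 of 200 changed by a log2 of 1 were called, and 6 of 576 unchanged. The simulated counts had 1 spread for all nucleotides and no library sets. Their change was larger than those called at C565, so the recovery of smaller changes was not tested. Pairing outside helix 18 came from ViennaRNA 2.7.2. Library sets joined untreated profiles with a correlation above 0.7.

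Nucleotides were named if they were called between particles, were among the 5 tested with the largest change from WT or the 10 with the highest mean subtracted rate, lay in the helix 18 loop, or were lower with DMS. A594, C596, A599 and A473, and members named because DMS raised them in some particle, were chosen after their values were seen. The members and rules were chosen with earlier results of these data known, among them a lower C565 in Rio2_Δloop.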

Additional observations from a re-analysis of the deposited data

Results flagged for a closer look

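The effect of DMS over the untreated libraries at C565 was smaller in Rio2_Δloop than in WT pre-40S by a log2 difference of -1.36 (SE 0.346, edgeR interaction term, adjusted p = 0.0119), and smaller in mature 40S than in WT by -1.68 (SE 0.382, adjusted p = 0.00184). The interaction term was adjusted over the nucleotides tested between particles, which C565 entered through WT and S15_YRR, where it is high. The share of those nucleotides called by the interaction term was not counted, so these calls have no background beside them. At A534 the same term was larger in mature 40S than in WT by 1.52 (SE 0.423, edgeR adjusted p = 0.00943), and in S15_YRR than in WT by 1.57 (SE 0.416, adjusted p = 0.102), which was as large and did not pass. Beside it, the untreated rate at A534 was 0.967% ± 0.894 in WT, with 2.51% in replicate 1, 0.243% ± 0.0906 in S15_YRR and 0.221% ± 0.128 in mature 40S (SD), while the DMS libraries alone differed from WT by 0.08 and 0.13; the part of the untreated rate in this term was not tested.

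Of 44 values in groups of 4 or 5 replicates, 3 had 1 replicate far from the others, where chance gives about 1 in 20. Rio2_Δloop replicate 4 had a subtracted rate of 2.20 percentage points at A492 against 1.19 to 1.31 in the other replicates. WT replicate 1 had -0.495 at A580 against -0.0567 to 0.111, and -0.707 for the mean over the shoulder against 0.150 to 0.476.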

How the results depend on the processing

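C565 stayed lower in mature 40S than in WT, past the threshold, in all 28 alternatives run, with adjusted p from 8.72e-06 to 0.0365. All but 1 of them chose nucleotides by the signal filter, which C565 met through particles where it is high, so they are not independent support. The fit without that filter gave the highest of these values (edgeR adjusted p = 0.0365). The count of 1 called nucleotide for Rio2_Δloop and WT became 0 without the signal filter, without a library scale and within set 1, as did that for mature 40S and S15_YRR without the signal filter, without a library scale, with limma on the deposited accessibility and with the interaction term (adjusted p at C565 0.341, 0.0615, 0.242 and 0.162). The interaction term gave 2 for mature 40S and WT, adding A534. C565 in mature 40S against Rio2_Δloop reversed to 0.11 with limma on the deposited accessibility (adjusted p = 0.934). The cause was not tested. With 1 replicate left out, counts ranged from 0 to 0 for S15_YRR and WT, 1 to 1 for Rio2_Δloop and WT, 1 to 2 for mature 40S and WT, and 0 to 1 for the other 3 pairs; C565 passed for S15_YRR and Rio2_Δloop without WT replicate 1 (adjusted p = 0.0415) or S15_YRR replicate 1 (adjusted p = 0.0146). Over the other 6 tested nucleotides, 4 of 972 alternative values were called and 100 changed sign.

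Counts of nucleotides raised by DMS, in the order WT, S15_YRR, Rio2_Δloop and mature 40S, were 4, 4, 6 and 4 at a depth minimum of 2000, which left 36 of the 69 nucleotides; without the block of library pairs they were 7, 5, 7 and 7, and within set 1 S15_YRR had 15. With 1 replicate left out they ranged from 8 to 10, 6 to 10, 7 to 19 and 8 to 16. In the untreated libraries within set 1, 1 nucleotide was called for S15_YRR and WT (A534, log2 -1.50, adjusted p = 0.0478) and 1 for S15_YRR and Rio2_Δloop (A525, -1.20, adjusted p = 0.0327). Without WT replicate 1, A529 was called for mature 40S and Rio2_Δloop (-1.40, adjusted p = 0.0250), a range of 0 to 1. The alternatives of the untreated comparison and of the mean rate were chosen after seeing the data. The mean subtracted rate of WT became 0.0121 as a median over nucleotides, 0.0364 at a depth minimum of 2000 and 0.389 within set 1, all within the spread of its replicates; that of the others became 0.117, 0.119 and 0.101 percentage points in S15_YRR, Rio2_Δloop and mature 40S as a median over nucleotides, and 0.225 and 0.197 in the first 2 at the depth minimum of 2000; with 1 replicate left out it ranged from -0.0262 to 0.270 in WT, 0.266 to 0.331 in S15_YRR, 0.278 to 0.307 in Rio2_Δloop and 0.189 to 0.305 in mature 40S.

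Same-numbered replicates of different particles did not deviate together: r was between -0.349 and 0.328 over 19 pairs, above 0.1 in 8. With the replicate number as a block, C565 was at -0.76 (adjusted p = 0.00164) for Rio2_Δloop and WT, -0.96 (adjusted p = 0.000274) for mature 40S and WT and -0.73 (adjusted p = 0.00734) for mature 40S and S15_YRR, and no call changed. The lowest effective depth at any of the 69 nucleotides described was 1018 reads, in the untreated library of WT replicate 1. The size of difference detectable at that depth was not tested.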
